A study of Mus musculus with 6 samples.

Results

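The aryl hydrocarbon receptor gene Ahr and 6 genes tied to it (Arnt, Ahrr, Cyp1b1, Cyp1a1, Tiparp and Nqo1) were taken by symbol from a table of 56859 genes, and all 7 were found. They were followed in spinal cord RNA of wild-type mice, collected 6 weeks after a T10 contusion of the cord. The injury + AZ876 group (n = 3) had been given AZ876, a compound that activates the liver X receptors, into the peritoneum at 5 mg/kg each day for the first 1 week. In the injury group (n = 3) the mice had the same contusion without AZ876, and the protocols state that controls were injected with the solvent alone. The labels give 1 batch and do not say whether replicates were separate animals, and the p-values therefore speak only of the spread among these libraries, part of which may be technical. No uninjured cord was analysed here, so no level is given relative to healthy tissue.

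AhR is a ligand-activated transcription factor of the bHLH-PAS family. In the cytosol it is held by HSP90 chaperones. Ligands, among them planar pollutants and tryptophan derivatives such as kynurenine, send it to the nucleus, where it pairs with ARNT and binds short response elements. The cytochrome P450 genes Cyp1a1 and Cyp1b1, the repressor gene Ahrr, the ADP-ribosyltransferase gene Tiparp and the quinone reductase gene Nqo1 are classical targets. AHRR competes for ARNT and TIPARP marks AhR for loss, so both act as brakes. In the nervous system the receptor is known from microglia, astrocytes and vessels, where it takes part in the control of inflammation.

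At 6 weeks, Ahr and Cyp1b1 were the members with all 3 AZ876 libraries above all 3 injury libraries, with mean levels 2.32 and 2.55 times as high. Arnt, Ahrr, Nqo1 and Tiparp had overlapping groups, with mean levels 1.07, 1.12, 1.18 and 0.824 times those of the injury group. Cyp1a1, the target most often used to read AhR activity, was at the limit of detection in both groups. The members were chosen by gene name, with the fold changes of this same contrast already known, so their values are given as a description, with no test. Of the 7 members, 6 passed the filter on low counts, and edgeR's adjusted p was under 0.05 for 0 of them, as for 0.0% of all 17599 genes tested. At an unadjusted p under 0.05, 2 members were higher and 0 lower, against 7.98% of all genes higher and 6.74% lower. DESeq2 called 2 members higher and 0 lower (0.705% and 0.307% of all genes), and limma-voom called 0. Groups did not overlap for 2 members with AZ876 higher and for 0 with AZ876 lower, against 10.2% and 8.64% of all genes tested.

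The promoters of 4 target genes are shown because the groups separated for Cyp1b1, as for the receptor, and did not for the other 3. Each runs from 250 bases before to 50 after the annotated start, from RefSeq on GRCm38.p6, where 6 of the 7 members had an entry. Capitals mark the letters GCGTG, the core of the AhR response element, or their reverse complement where the match is on the other strand. The windows lie at chr17:79715012-79715311 on the minus strand for Cyp1b1, chr13:74292282-74292581 on the minus strand for Ahrr, chr9:57697363-57697662 on the plus strand for Cyp1a1 and chr3:65528197-65528496 on the plus strand for Tiparp.
Cyp1b1: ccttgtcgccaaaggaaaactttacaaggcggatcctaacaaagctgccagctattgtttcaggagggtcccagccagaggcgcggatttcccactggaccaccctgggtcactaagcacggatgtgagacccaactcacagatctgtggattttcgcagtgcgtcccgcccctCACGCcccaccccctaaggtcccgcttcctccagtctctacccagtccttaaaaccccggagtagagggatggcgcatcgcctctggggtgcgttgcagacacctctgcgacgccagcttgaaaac
Ahrr: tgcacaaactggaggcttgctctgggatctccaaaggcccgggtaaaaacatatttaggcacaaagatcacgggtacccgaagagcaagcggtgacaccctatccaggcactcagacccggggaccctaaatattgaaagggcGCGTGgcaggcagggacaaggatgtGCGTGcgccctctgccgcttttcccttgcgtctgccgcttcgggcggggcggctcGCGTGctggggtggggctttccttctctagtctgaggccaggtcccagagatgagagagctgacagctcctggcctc
Cyp1a1: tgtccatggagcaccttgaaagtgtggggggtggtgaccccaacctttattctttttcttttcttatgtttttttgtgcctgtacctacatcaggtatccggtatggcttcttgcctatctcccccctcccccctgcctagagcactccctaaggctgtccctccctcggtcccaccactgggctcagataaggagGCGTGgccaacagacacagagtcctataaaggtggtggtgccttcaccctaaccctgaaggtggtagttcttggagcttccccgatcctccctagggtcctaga
Tiparp: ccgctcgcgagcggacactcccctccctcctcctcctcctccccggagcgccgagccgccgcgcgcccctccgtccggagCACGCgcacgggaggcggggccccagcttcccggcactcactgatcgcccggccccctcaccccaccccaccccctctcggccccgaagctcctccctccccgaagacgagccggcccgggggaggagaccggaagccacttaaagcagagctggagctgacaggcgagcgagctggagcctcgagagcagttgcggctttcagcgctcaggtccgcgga

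Ahrr held 3 matches to GCGTG, which began 107, 82 and 27 bases before the start, and Cyp1b1, Cyp1a1, Tiparp and Arnt held 1 each, while Nqo1 held 0. On both strands, 32.4% of the 32851 promoters in the table hold at least 1 match. A longer form, TNGCGTG, which contains the core, matched only Ahrr among the 6 promoters, at the copy nearest the start, and is found in 5.07% of all promoters. The antioxidant response element TGACNNNGC, bound by NRF2, a factor that also switches on Nqo1, matched 2 times in Arnt and in none of the other 5, against 12.4% of all promoters. Ahrr, with the most matches, had overlapping groups, and Cyp1b1, with 1 match, had groups that did not overlap. Ahrr rested on only 6 to 15 counts per library, against 388 to 1693 for Cyp1b1, so its overlap does not show a lack of response. A match is a string of letters and not a bound site, and the windows leave out more distant enhancers.

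Ahr itself is listed as ENSMUSG00000019256 (chromosome 12, 35547973 to 35585037, minus strand). The table names no genome build for its positions. Those given below for Cyp1b1 and Tiparp do not match the GRCm38.p6 promoter windows above, so distances between the gene positions and the windows have no meaning. The level of Ahr was 5.72, 3.99 and 6.18 CPM (counts scaled to a common library size by TMM) in injury replicates 1, 2 and 3, and 12.2, 10.8 and 13.8 CPM in AZ876 replicates 1, 2 and 3. The AZ876 libraries were all above the injury libraries, and the step of 0.81 on the log2 scale between the highest injury and the lowest AZ876 library was larger than any step within a group (at most 0.52). The group levels were 5.30 ± 1.15 and 12.3 ± 1.5 CPM (SD, n = 3 each), a log2 fold change of 1.21 ± 0.22 (SE). These values rest on 76 to 237 reads per library. When each library was left out in turn, the log2 fold change stayed between 1.04 and 1.34.

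**Figure D1:**
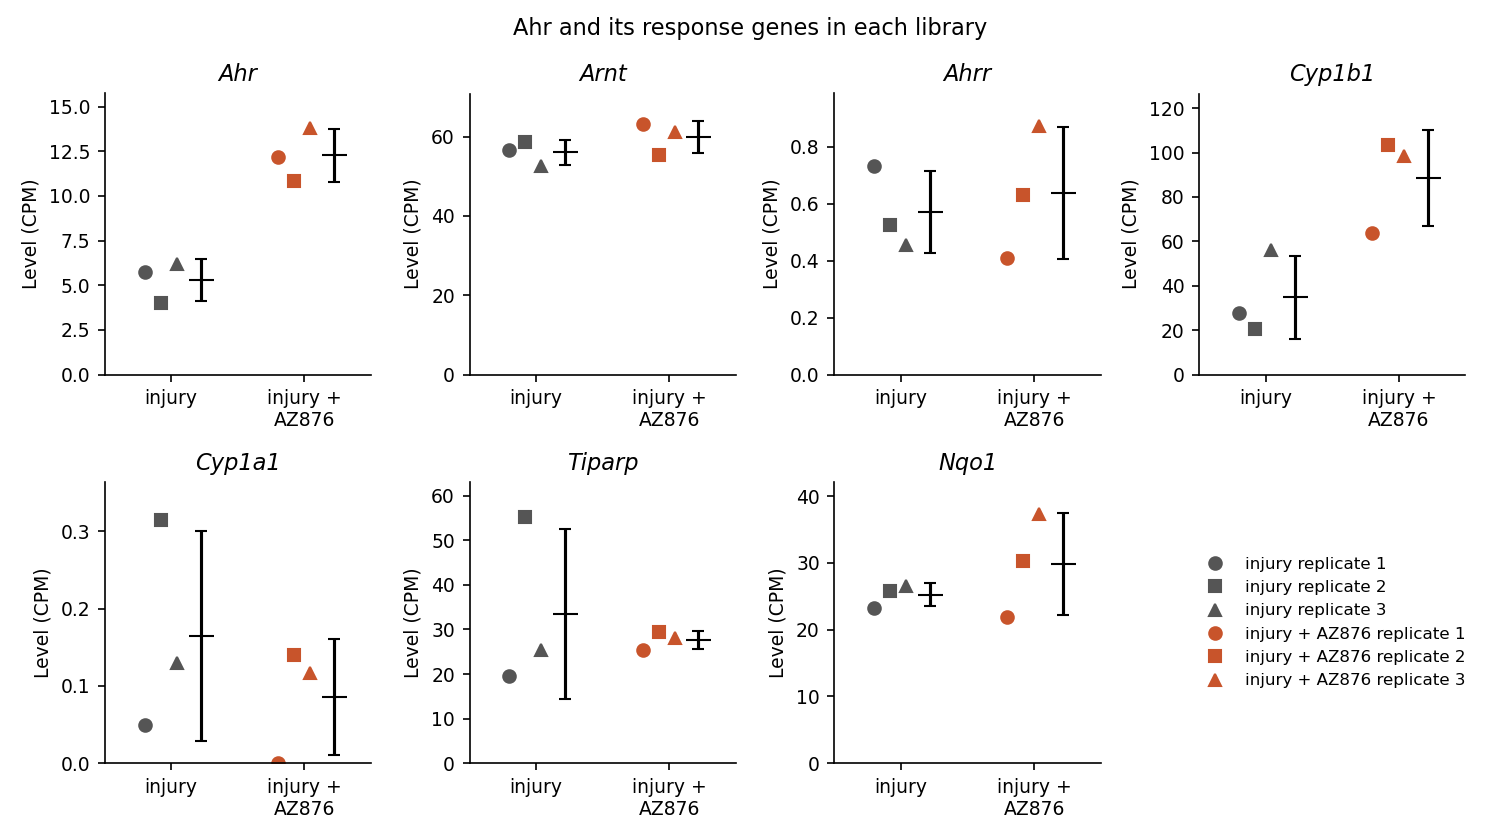
Level in CPM (y axes, each from 0) of the 7 genes in the injury and injury + AZ876 groups. Symbols are single libraries, and the black marks beside them are the group mean with the SD of 3 libraries. Ahr and Cyp1b1 have all 3 AZ876 libraries above the injury libraries, and the other 5 genes overlap.

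Arnt encodes the partner that AhR needs to bind DNA and that the hypoxia factors share. The table places it on chromosome 3 between 95341699 and 95404551, plus strand. Its level was 56.7, 58.7 and 52.6 CPM in the injury libraries and 63.1, 55.3 and 61.1 CPM in the AZ876 libraries. The groups overlapped, at 56.0 ± 3.11 and 59.8 ± 4.04 CPM (SD, n = 3 each), and the log2 fold change was 0.09 ± 0.11 (SE). Per kilobase of exon, with exon lengths from GENCODE M21, the level of Arnt was 7.0 ± 0.389 CPM per kb with injury and 7.47 ± 0.504 CPM per kb with AZ876. The level of Ahr on the same scale was 0.859 ± 0.187 and 1.99 ± 0.243 CPM per kb, so the receptor transcript was below that of its partner in both groups.

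Among the targets, Cyp1b1 encodes a cytochrome P450 that oxidises oestrogens, retinoids, fatty acids and polycyclic hydrocarbons, and it is known from stromal cells such as fibroblasts. The table places it on chromosome 17 between 80008966 and 80022490, minus strand. Its level was 27.9, 20.4 and 56.0 CPM in the injury libraries and 63.9, 103.6 and 98.6 CPM in the AZ876 libraries. Injury replicate 3 and AZ876 replicate 1 were close to each other, and no library crossed over. The group levels were 34.7 ± 18.8 and 88.8 ± 21.6 CPM (SD, n = 3 each), a log2 fold change of 1.36 ± 0.37 (SE), which ran from 1.08 to 1.88 when single libraries were left out. The highest value came without injury replicate 3.

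Cyp1a1 encodes the P450 that AhR ligands induce most sharply in liver and epithelia. It was counted 1, 6 and 2 times in the injury libraries and 0, 2 and 2 times in the AZ876 libraries. A count of 0 allows up to 3 counts, or 0.205 CPM in AZ876 replicate 1. Apart from injury replicate 2, all libraries were at or below this limit, so no fold change is given and a difference was not detectable at this depth. Cyp1a2, a related liver enzyme gene, had 0 counts in all 6 libraries, each of which allows up to 3.

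Ahrr, the repressor, was also scarce, at 15, 10 and 7 counts in the injury libraries and 6, 9 and 15 counts in the AZ876 libraries. That is 0.734, 0.525 and 0.455 CPM against 0.410, 0.632 and 0.874 CPM, and the AZ876 group held both the lowest and the highest library. The log2 fold change was 0.16 ± 0.43 (SE). Its SE was the widest of the 6 tested members.

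Nqo1 encodes a quinone reductase of the antioxidant response. The table places it on chromosome 8 between 108114857 and 108129838, minus strand. Its level was 23.2, 25.8 and 26.5 CPM in the injury libraries and 21.95, 30.2 and 37.3 CPM in the AZ876 libraries. AZ876 replicate 1 was below every injury library and replicates 2 and 3 above them. The log2 fold change was 0.25 ± 0.20 (SE), and 0.05 without AZ876 replicate 3.

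Tiparp encodes the ADP-ribosyltransferase that limits AhR. The table places it on chromosome 3 between 65435831 and 65462939, plus strand. Its level was 19.7, 55.3 and 25.5 CPM in the injury libraries and 25.4, 29.4 and 28.0 CPM in the AZ876 libraries. Injury replicate 2 stood apart at 1.88 times the next highest library, and the remaining 5 libraries lay between 19.7 and 29.4 CPM. The log2 fold change of −0.28 ± 0.35 (SE) turned to 0.29 without injury replicate 2.

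Injury replicate 2 was also the library with the highest level of each of 14 genes known to respond to glucocorticoids, a list drawn up after the values were seen and partly from genes high in that library. Of these, 11 exceeded every other library by more than 1.5 times. Fkbp5, a chaperone gene induced by the glucocorticoid receptor, was at 323 CPM there and at 91.5 to 128 CPM in the remaining 5 libraries. Per1, a clock gene that glucocorticoids induce, was at 284.4 CPM there and at 113 to 146 CPM elsewhere. Cdkn1a, the gene of a cell cycle inhibitor, was at 473.5 CPM there and at 79.5 to 98.4 CPM elsewhere. In all, 198 of 12889 genes with a mean of at least 5 CPM were more than 1.5 times as high in injury replicate 2 as in any other library, against 2 to 100 genes for each of the other 5 libraries. The part of this library's state in the Tiparp value was not tested.

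**Figure D2:**
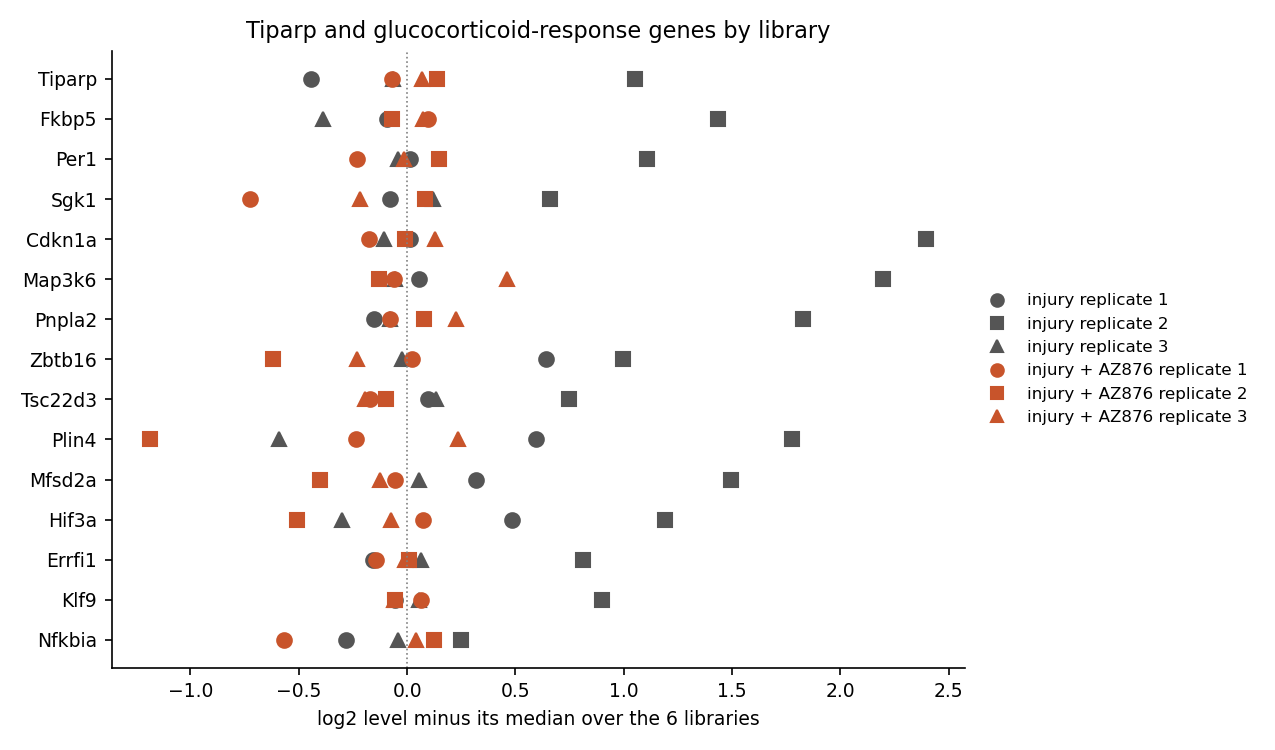
Level of Tiparp and of the 14 glucocorticoid-response genes in each library, as log2 CPM minus the gene's median over the 6 libraries (x axis); symbols are single libraries. Injury replicate 2 (grey square) is the highest library in every row, Tiparp included. The 14 genes were listed after the values were seen, partly because they were high in that library.

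To set the targets beside the receptor, each library's ratio of target to Ahr CPM was taken. Between the groups it restates fold changes known when the members were chosen, so it is no test of whether targets follow Ahr. For Cyp1b1 the ratio was 4.87, 5.11 and 9.06 in the injury libraries and 5.25, 9.58 and 7.14 in the AZ876 libraries, so it overlapped between the groups. For Nqo1 it was 4.06, 6.46 and 4.29 with injury and 1.80, 2.79 and 2.70 with AZ876. For Tiparp it was 3.44, 13.9 and 4.13 with injury and 2.09, 2.71 and 2.03 with AZ876. These 2 targets, together with Ahrr and the partner Arnt, had all 3 AZ876 libraries below all 3 injury libraries in this ratio. The same held for 84.1% of all genes tested, since the ratio of any gene of steady level is lower where Ahr is higher.

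**Figure D3:**
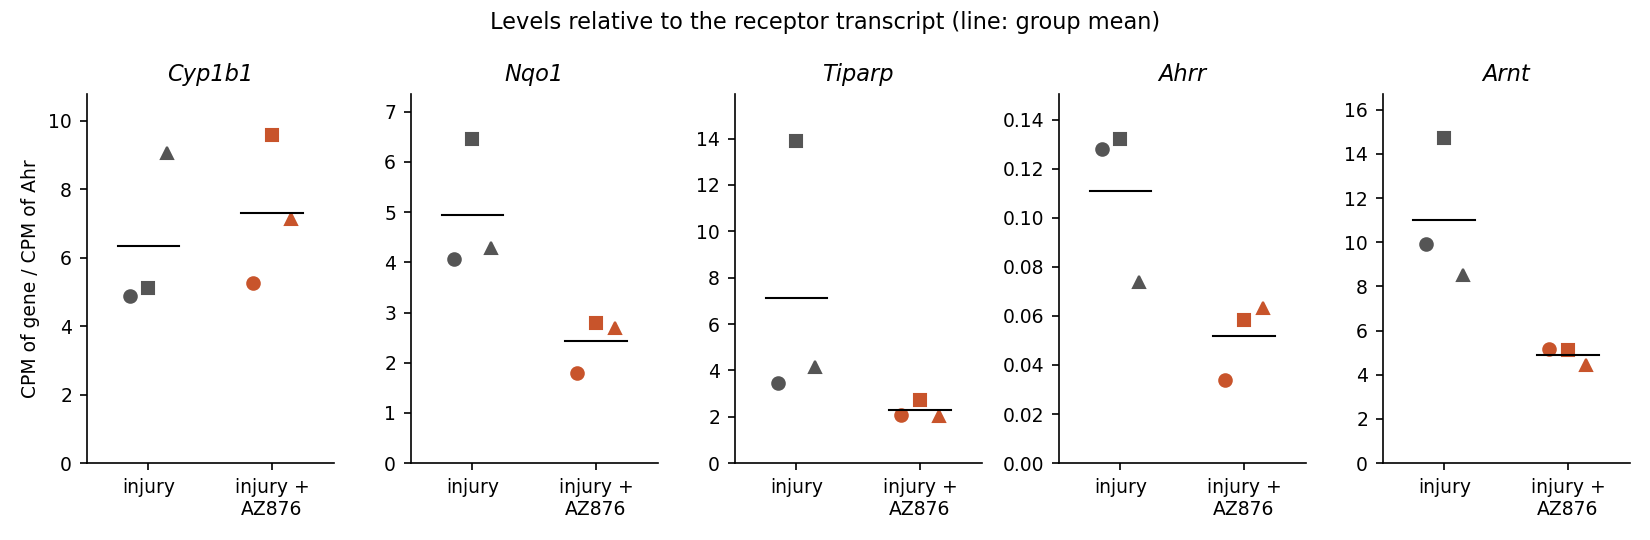
CPM of 5 members divided by the CPM of Ahr in the same library (y axes, each from 0); symbols are libraries and lines are group means. The ratio of Cyp1b1 overlaps between groups, with means of 6.35 and 7.32, and the ratios of Nqo1, Tiparp, Ahrr and Arnt are lower in every AZ876 library.

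Within groups the order of the libraries was compared as well. In the injury group both Ahr and Cyp1b1 were lowest in replicate 2 and highest in replicate 3. In the AZ876 group Ahr was lowest in replicate 2, where Cyp1b1 was highest. Nqo1 was lowest in replicate 1 and highest in replicate 3 in both groups. Because the libraries fell into separate clusters of Ahr level that matched the groups, no correlation of targets with the receptor over all 6 libraries is given, and 3 libraries per group are too few for one within groups.

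Of the receptor's complex and the other bHLH-PAS genes, 13 of 15 genes in the table were tested, and edgeR, DESeq2 and limma-voom called 0 of them in either direction at an adjusted p under 0.05. At an unadjusted p under 0.05 edgeR also called 0. Their median log2 fold change was −0.17, with 2 positive and 11 negative, against a median of 0.00 over all genes tested. Hif1a, the hypoxia factor that also pairs with ARNT, was at 88.3, 98.9 and 132 CPM with injury and 126, 132.5 and 161 CPM with AZ876, and its log2 fold change was 0.39 ± 0.17 (SE, edgeR adjusted p = 0.343). Arnt2, the neuronal form of the partner, was at 205 to 242 CPM with injury, above all 3 AZ876 libraries with a mean of 190.8 CPM, and had a log2 fold change of −0.23 ± 0.11 (SE, edgeR adjusted p = 0.354). Npas4, an activity-induced neuronal factor, had −0.75 ± 0.34 (SE, edgeR adjusted p = 0.346). The neuron markers Snap25, Rbfox3, Syt1, Nefl and Tubb3 had negative log2 fold changes, all 5 of them. At an adjusted p under 0.05 edgeR, DESeq2 and limma-voom called 0. At an unadjusted p under 0.05 edgeR called 3 lower, against 6.74% of all genes tested. The summed level of these markers was 2220 to 3092 CPM with injury and 1000 to 2285 CPM with AZ876, with AZ876 replicate 1 above injury replicate 3. The part of neurons in the values of Arnt2 and Npas4 was not tested.

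Of 25 other AhR target genes, 13 were tested, and edgeR, DESeq2 and limma-voom called 0 in either direction at an adjusted p under 0.05. Their median log2 fold change was 0.04, with 8 positive and 5 negative (50.5% of all genes tested were positive). At an unadjusted p under 0.05, 2 were higher and 0 lower, against 7.98% and 6.74% of all genes tested. The 2 higher genes were Nfe2l2, which encodes NRF2, and Entpd1, the gene of the ATP-degrading surface enzyme CD39. Nfe2l2 was at 85.5, 64.7 and 126.0 CPM with injury and 115, 154 and 176 CPM with AZ876, and its log2 fold change was 0.69 ± 0.26 (SE, edgeR adjusted p = 0.330). Entpd1 was at 37.1, 28.6 and 48.6 CPM with injury and 42.7, 61.5 and 74.9 CPM with AZ876, and its log2 fold change was 0.65 ± 0.25 (SE, edgeR adjusted p = 0.330). In both genes AZ876 replicate 1 lay below injury replicate 3. Ugt1a7c, a glucuronidation enzyme gene, had 0.70 ± 0.31 (SE, edgeR adjusted p = 0.344), and its reads may be split with other Ugt1a genes that share its exons. Scin, an actin-severing protein gene chosen after its values were seen, did not pass the filter. It had 1 count in each injury library and 8, 7 and 7 counts in the AZ876 libraries. The remaining targets below the filter had overlapping groups.

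Of 14 genes for uptake and breakdown of tryptophan, a source of endogenous AhR ligands such as kynurenine, 11 were tested. The list mixes genes that make kynurenine with genes downstream of it, so its median is no measure of ligand supply. At an adjusted p under 0.05 edgeR, DESeq2 and limma-voom called 0 in either direction. At an unadjusted p under 0.05 edgeR also called 0. The median log2 fold change was −0.02. Ido2, a tryptophan dioxygenase gene that is itself also an AhR target, was at 1.52, 2.1 and 1.82 CPM with injury and 1.37, 0.843 and 1.11 CPM with AZ876, and its log2 fold change was −0.71 ± 0.32 (SE, edgeR adjusted p = 0.346). The downstream enzyme genes Kmo and Kynu had 0.78 ± 0.49 and 0.66 ± 0.42 (SE), with edgeR adjusted p-values of 0.436 and 0.442. Ido1, the inducible dioxygenase gene, did not pass the filter and stood at 0.440, 0.368 and 0.130 CPM with injury and 0.0684, 0.0703 and 0.175 CPM with AZ876.

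NRF2 targets, the other known input to Nqo1, were all tested (20 of 20), and edgeR, DESeq2 and limma-voom called 0 in either direction at an adjusted p under 0.05. The median log2 fold change was 0.13, with 15 positive and 5 negative, beside 50.5% positive over all genes tested. At an unadjusted p under 0.05, 4 were higher and 0 lower, against 7.98% and 6.74% of all genes. Slc7a11, the cystine transporter gene, was at 69.1, 20.5 and 71.2 CPM with injury and 104, 155 and 152 CPM with AZ876, and its log2 fold change was 1.35 ± 0.43 (SE, edgeR adjusted p = 0.330). Like Cyp1b1 it was lowest in injury replicate 2. Pgd, of the pentose phosphate pathway, and Ephx1, the epoxide hydrolase that works with P450 enzymes, had 0.47 ± 0.16 and 0.47 ± 0.17 (SE), both with an edgeR adjusted p of 0.330. The glutathione synthesis genes Gclc and Gclm, which NRF2 also drives, had 0.08 ± 0.11 and −0.02 ± 0.14 (SE).

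**Figure D4:**
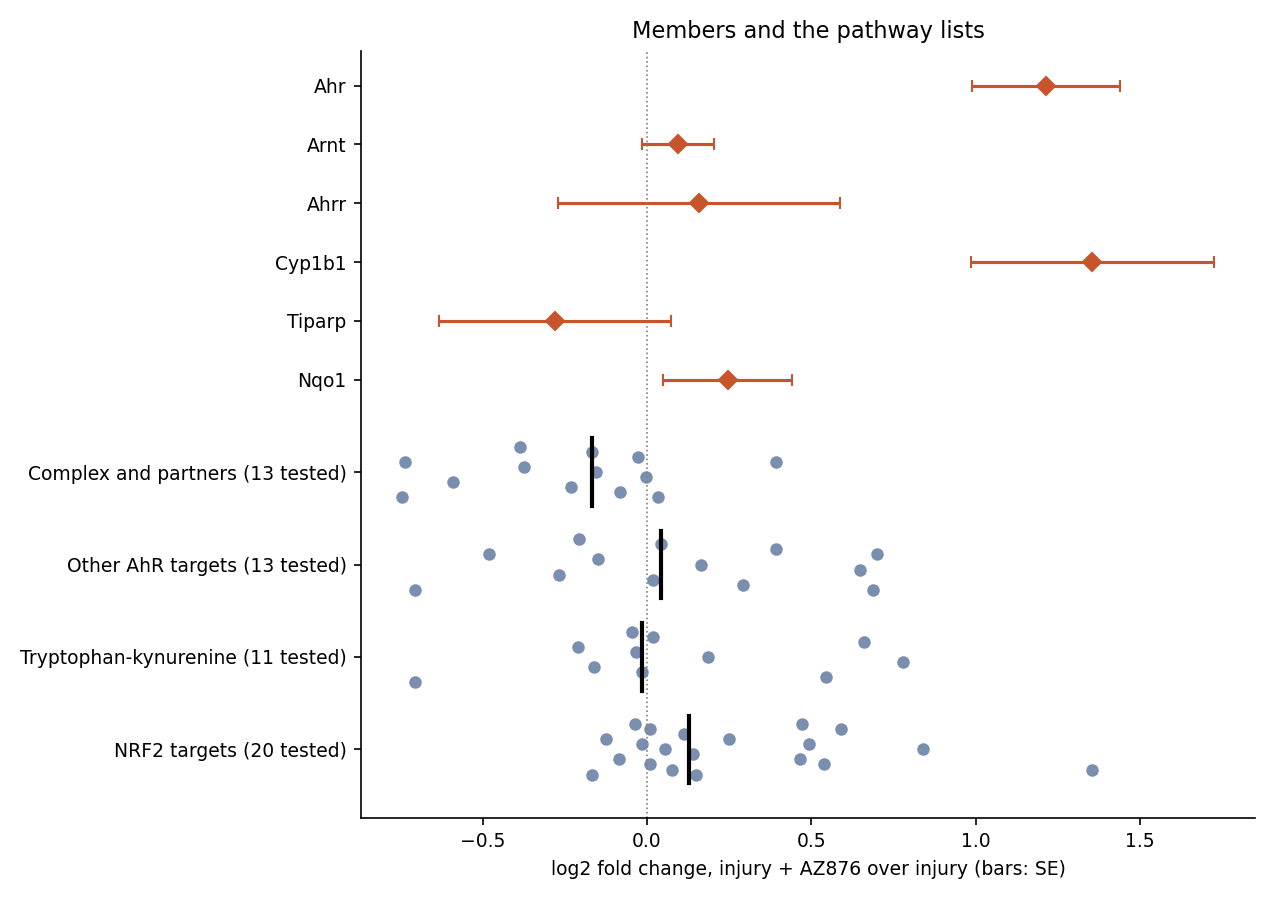
log2 fold change of injury + AZ876 over injury (x axis) for the 6 tested members (diamonds, bars are the SE) and for the tested genes of 4 pathway lists (circles, black line is the median). Ahr and Cyp1b1 stand at 1.21 and 1.36, and the list medians lie between −0.17 and 0.13.

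The levels come from whole tissue, where more cells of a type and more RNA per cell cannot be told apart. Markers of fibroblasts and meninges, which express Cyp1b1, had 6 of 6 genes with a positive log2 fold change (median 0.96), and their summed level was 1447, 607 and 1856 CPM with injury and 2075, 3094 and 2549 CPM with AZ876. The order of the 6 libraries in these sums was that of Cyp1b1, from injury replicate 2 as the lowest to AZ876 replicate 2 as the highest. Taken singly, Dcn, Col1a1, Col1a2 and Col3a1 had this order, and Lum and Pdgfra did not. For Lum, injury replicate 3 (72.5 CPM) was above AZ876 replicate 1 (50.1 CPM), and for Pdgfra injury replicate 3 was the lowest library (47.0 CPM). The T cell sums had the order of Cyp1b1, as did 216 of the 17598 other genes tested (1.23%), Slc7a11 among them. The part of these cell types in the Cyp1b1 value was not tested. Schwann cell markers had 4 of 4 positive and summed to between 1010 and 2068 CPM with injury and between 2524 and 2933 CPM with AZ876. Myeloid markers had 7 of 7 positive (median 0.58), with overlapping sums of 937 to 1295 CPM with injury and 1034 to 2089 CPM with AZ876. In these sums AZ876 replicate 1 was the second lowest of the 6 libraries. As for Ahr, the groups did not overlap in the fibroblast and meninges sums or in the Schwann sums. The part of any of these cell types in the Ahr value was not tested. Endothelial markers summed to between 268 and 323 CPM and between 311 and 372 CPM, and pericyte and smooth muscle markers to between 202 and 317 CPM and between 284 and 313 CPM. Astrocyte sums overlapped (8541 to 11898 CPM and 8155 to 13929 CPM), oligodendrocyte sums were lower with AZ876 (21884 to 24008 CPM and 17150 to 21258 CPM), and T cell and B cell sums were higher (2.84 to 6.89 and 9.44 to 14.8 CPM for T cells, 1.79 to 4.49 and 5.88 to 6.82 CPM for B cells). As single genes, Mog and Mag of the oligodendrocyte list, Cd3e of the T cell list and Ms4a1 of the B cell list had overlapping groups. The T cell and B cell genes rested on 1 to 82 counts per library. Liver marker sums were low in both groups, at 0.735 to 0.845 CPM with injury and 1.12 to 1.28 CPM with AZ876. The sums did not overlap, but Alb, Ttr and Apoa1 each did, on 1 to 10 counts per library. None of these genes passed the filter on low counts, so no difference is read from them. No marker of any list was at 0 in all libraries.

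**Figure D5:**
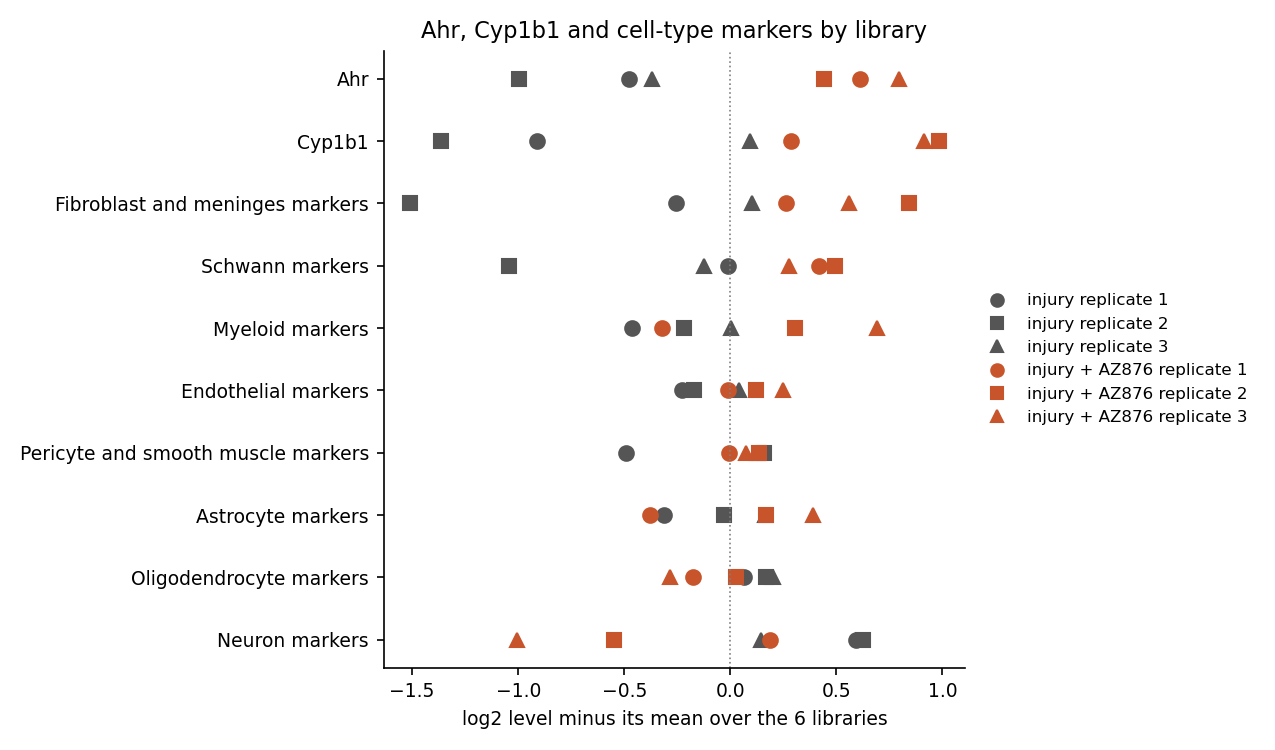
Level of Ahr, of Cyp1b1 and the summed level of 8 cell-type marker lists in each library, as log2 CPM minus the mean over the 6 libraries (x axis); symbols are single libraries. The order of libraries in the Cyp1b1 row and in the fibroblast and meninges row is the same, as it is for the T cell sums, which are not plotted, and the myeloid row has AZ876 replicate 1 among the injury libraries.

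The 5 genes whose pattern over the 6 libraries was most like that of Ahr, by Pearson's r of log2 CPM, were Ildr2 (0.989), Slc16a7 (0.988), Eif4e3 (0.987), Agpat2 (0.986) and Lama2 (0.985). These r are a description of likeness among many genes, they include the step between the groups, and they carry no test. Ildr2, a membrane protein gene of the immunoglobulin superfamily, was at 73.5, 61.8 and 74.3 CPM with injury and 94.4, 96.8 and 98.8 CPM with AZ876. Lama2, a laminin chain gene of basement membranes, was at 29.6, 26.5 and 31.8 CPM with injury and 42.1, 44.2 and 45.1 CPM with AZ876. Slc16a7 and Agpat2, a monocarboxylate transporter and an enzyme of glycerolipid synthesis, had log2 fold changes of 0.62 and 0.78, both smaller than that of Ahr.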

How the data were processed

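The authors deposited 1 table of raw, unnormalised read counts per gene, with each library in its own column and no pooling. Per the submitters' processing notes, fastp 0.23.0 and HISAT2 2.1.0 were used. Which counting program, strand setting, genome build and annotation were used is not given in the sources used here, so reads shared with overlapping genes or close copies may have been counted either way. Columns were tied to samples by library name and samples to groups by title.

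Of 57010 rows, 148 symbols were repeated with identical counts, and 1 row per symbol was kept (56859 genes). Genes with low counts were removed with filterByExpr, which left 17599. Counts were scaled by TMM to CPM, and AZ876 was compared with injury with edgeR 4.0.16 in R 4.3.3 (quasi-likelihood F-test, robust, 4 residual degrees of freedom), and p-values were adjusted by Benjamini-Hochberg over the whole set of tested genes (threshold 0.05). The script was first tested on simulated data with 200 changed genes. There edgeR called 5.97% of the 1.5-fold, 38.8% of the 2-fold and 81.8% of the 4-fold changes. A count of 0 genes called therefore does not show that levels were equal. The SE is the size of the log2 fold change over the root of F. DESeq2 1.42.0, limma-voom (limma 3.58.1), other scalings, no filter, a replicate block and leaving out each library were alternatives.

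The 7 genes and the 4 pathway lists were chosen with earlier results of these data known. Of each pathway list the 3 genes of smallest p are named, together with the 5 protein-coding genes of at least 5 CPM whose pattern was most like that of Ahr. Any other gene named was chosen after its values were seen. One gene counted in a pathway list is not reported here. Total counts ran from 14067649 to 20211175, and the limits quoted for low genes cover counting error only.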

Additional observations from a re-analysis of the deposited data

How the results depend on the processing

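At an adjusted p under 0.05 edgeR called 0 genes in either direction (2592 at an unadjusted p under 0.05, and 0 adjusted with limma-voom or with DESeq2's size factors). With no low-count filter 6 were higher, with DESeq2 124 were higher and 54 lower, and leaving out single libraries gave 0 to 64 higher and 0 to 299 lower, the most without AZ876 replicate 1. Of Ahr and its response genes, 0 were called under any of these settings but DESeq2, which called 2, Ahr (adjusted p = 0.00184) and Cyp1b1 (adjusted p = 0.0376). In the pathway lists 0 genes were called under every setting run. With the replicate number as a block, 2 genes were higher and 0 lower, none of them a member. Same-numbered libraries had correlations of their deviations from the group means of 0.39, −0.137 and 0.322, and different-numbered ones of −0.489 to 0.345. With 3 libraries per group these values cannot settle whether the numbers pair the samples, and the main fit did not pair them. The direction of Ahr and Cyp1b1 (log2 fold changes of 1.04 to 1.34 and 1.08 to 1.88) held in all 11 settings. Since the groups of both genes did not overlap, leaving out a single library could not turn it. The log2 fold change of Tiparp ran from −0.55 without injury replicate 1 to 0.29 without injury replicate 2, the only setting that turned it. Alternatives for the correlation of targets with Ahr were not run, since no such correlation was given. Depth limits Cyp1a1, Ahrr and Scin, which have at most 15 counts in any library. The first principal component, with 55.4% of the variance, did not separate the groups. Injury replicates 1 and 2 stood at −40.6 and −52.3, and AZ876 replicates 2 and 3 at 44.2 and 49.5. Between them, injury replicate 3 (6.31) and AZ876 replicate 1 (−7.17) were crossed, each on the side of the other group.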

Other observations

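Aadat, a kynurenine aminotransferase gene chosen after its values were seen, did not pass the filter on low counts and had 4, 4 and 3 counts in the injury libraries and 14, 8 and 16 counts in the AZ876 libraries.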
